A study of Mus musculus with 6 samples.

Results

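The 42 genes described here encode proteins that drive and carry out mitosis, from the cyclins and kinases that start it to the motors that build the spindle and the proteins that cut the cell apart. They were chosen as a named list of mitotic gene symbols. The probes of a gene were all non-control probes of the array whose transcript belongs to its symbol, and the brightest of them stood for the gene. All 42 genes were measured, by 56 probes in all, and they were read off a fit over 29752 genes or unnamed transcripts. The probe used for each of the 42 was well above background on all 6 arrays, so none was lost to the filter on dim probes.

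The cells were BV2, an immortalized line of mouse microglia that divides in culture. Microglia are the resident macrophages of the brain. In 1 group recombinant murine IL-4, the cytokine used to bring about alternative (M2) activation of macrophages, was present at 10 ng/ml for 24 hr, and in the other PBS for the same 24 hr, each with 3 samples and 3 single-colour Agilent arrays. Both groups are the same line. Separate cultures are not named in the labels, so the p-values reflect only how far these samples differ among themselves, possibly for technical reasons.

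Mitosis starts when the kinase CDK1, bound to a cyclin, is switched on by CDC25 phosphatases. Kinetochores then tie the chromosomes to spindle microtubules, and the spindle checkpoint holds back the anaphase-promoting complex (APC/C), a ubiquitin ligase, until all are attached. When its activator CDC20 is released, the APC/C marks cyclin B for destruction, the chromosomes part and the cell divides. Most of the genes are transcribed late in the cell cycle, so their mRNAs are abundant in dividing cultures and scarce in resting cells, and Mki67 is widely used to mark dividing microglia. Since each array measured RNA of a whole culture, fewer cells in mitosis and less mRNA per cell cannot be told apart.

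Signals are given as the log2 processed intensity relative to the 75th percentile of the same array, so that 0 is the signal at that percentile. That percentile lay at intensities of 674 to 876, 87.9% to 98.0% of the 39429 probes were well above background on each array, and no spot was saturated. The arrays were not spread evenly over the slides, as inferred from their scan dates. All 3 IL-4 arrays and PBS replicate 1 shared slide 1, and PBS replicates 2 and 3 lay on slide 2. The lowest shares, 87.9% and 88.9%, were those of IL-4 replicate 1 and PBS replicate 2, the arrays in position 1 of each slide. Differences are therefore given over all arrays and, for the members and the named genes, also within slide 1, as the mean of the IL-4 arrays minus PBS replicate 1, which equals the IL-4 effect in a fit with slide as a block. Array number limits the precision of every value.

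With IL-4, 8 of the 42 genes fell and 0 rose (limma, Benjamini-Hochberg adjusted p under 0.05 over all genes). Among all 29752 genes 2.54% were called lower, 0.807% higher and 3.35% in either direction. The genes that fell were Mki67, Plk1, Ccna2, Cenpe, Nusap1, Kif23, Bub1b and Ccnb2, with signals 1.45-fold to 1.73-fold higher in PBS than in IL-4. Within slide 1 the same genes were 1.28-fold to 1.56-fold higher in PBS replicate 1, and all 3 IL-4 arrays lay below PBS replicate 1 for each of the 8. None was called with slide as a block, where their adjusted p ran from 0.20 to 0.34 and 0.0303% of all genes were called, 0.0101% lower. The count also rested on single arrays. Without PBS replicate 1, 26 of the 42 were called lower and 3 higher, against 23% and 19.6% of all genes, and without any other single array 0 were called.

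Most of the other members lay lower with IL-4 without passing. The log2 fold change was below 0 for 34 of 42 members and for 56.5% of all genes, with a median of -0.33 against -0.05. In 28 members all IL-4 arrays lay below all PBS arrays, as they did for 20% of all genes, and in 2 members, Cdc20 and Dlgap5, all lay above, as for 18.3% of all genes. At an unadjusted p under 0.05 the count was 25 of 42, beside 34.1% of all genes. A further 15 members had an adjusted p between 0.05 and 0.1, where 6256 of all genes lay.

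Within slide 1 the shift of the group was smaller. Its median was -0.18 against 0.0055 over all genes, and 34 of 42 members were below 0, compared with 48.8% of all genes. All IL-4 arrays lay below PBS replicate 1 for 30 members and above it for 5, beside 25.5% and 30.5% of all genes. With slide as a block 13 members had an unadjusted p under 0.05, against 10.2% of all genes.

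In the median over the members, PBS replicate 1 stood between the IL-4 arrays and the other PBS arrays. Over all genes it correlated more closely with the IL-4 arrays of its slide, at 0.9945, 0.9965 and 0.9965. With PBS replicates 2 and 3 the correlations were 0.9893 and 0.9886. PBS replicate 1 lay below the mean of PBS replicates 2 and 3 for 34 of 42 members and 59.8% of all genes, with median differences of -0.19 and -0.08. In 19 members, 7 of the 8 that fell among them, it was above every IL-4 array and below both other PBS arrays. The median deviation of the members from their PBS mean was -0.31 on each IL-4 array, -0.13 on PBS replicate 1, and 0.06 and 0.08 on PBS replicates 2 and 3. The IL-4 arrays were alike, with a median SD of 0.07 per member against 0.16 over the PBS arrays, and 31 members had the larger SD in PBS. Neither these SD values nor the count of 19 were taken over all genes, so they are not read as traits of the members. With a single PBS array on slide 1, the slide, the position on it and the sample cannot be told apart in this distance.

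**Figure D1:**
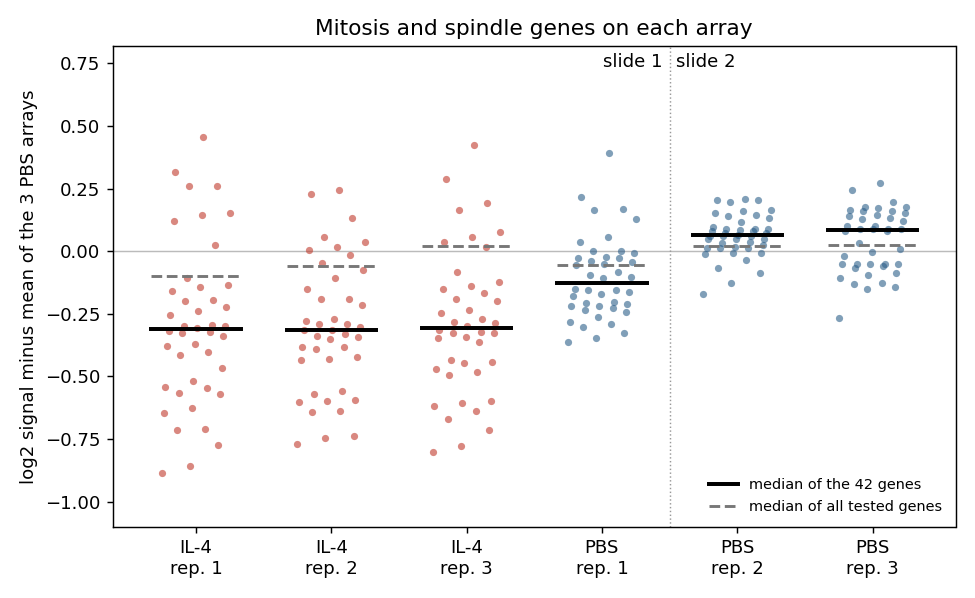
Each point is a mitosis gene on the array named below it, as its log2 signal minus the mean of that gene over the 3 PBS arrays. The solid bar is the median of the 42 genes and the dashed bar that of all tested genes, and the dotted line separates slides 1 and 2. The 3 IL-4 medians lie at -0.31, PBS replicate 1 lies at -0.13 and PBS replicates 2 and 3 lie above 0.

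In the groups by role below, the counts of genes that fell stand beside the 2.54% of all genes called lower. Among CDK1, its cyclins and its activating phosphatases, 2 of 7 genes fell and the median was -0.32, or -0.30 within slide 1. Ccna2 encodes cyclin A2, which serves in S phase and at the entry into mitosis. It read -0.80, -0.84 and -0.89 on IL-4 replicates 1, 2 and 3, and -0.43, -0.01 and 0.18 on PBS replicates 1, 2 and 3. All IL-4 arrays were below all PBS arrays, but the PBS arrays spread widely, with an SD of 0.31. IL-4 minus PBS gave a log2 fold change of -0.75 ± 0.16 (SE, limma) with an adjusted p of 0.049, and -0.41 within slide 1.

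Ccnb2, a B-type cyclin that partners CDK1, was tighter. Its signals were 1.27, 1.26 and 1.32 with IL-4 and 1.72, 1.87 and 1.85 with PBS. The groups were far apart compared with their spread, with a difference of -0.53 ± 0.10 on the log2 scale (SE; adjusted p = 0.039, limma), and -0.44 remained within slide 1. Ccnb1, the main mitotic cyclin, read 2.92, 2.82 and 2.95 with IL-4 and 3.11, 3.16 and 3.06 with PBS. The groups did not overlap, yet the difference of -0.22, the same within slide 1, did not pass (adjusted p = 0.16, limma). Its other probes gave -0.25 and -0.11 over all arrays, but 0.07 and 0.09 within slide 1.

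Cdk1 itself, the kinase at the centre of mitotic entry, did not pass. It was far above the 75th percentile on every array, at 3.74, 3.60 and 3.62 with IL-4 and 3.75, 3.57 and 3.43 with PBS, and the groups overlapped. Its difference was 0.07 ± 0.12 (SE; adjusted p = 0.69, limma) and turned to -0.09 within slide 1. Its other probes gave 0.31 and -0.07, both with -0.07 within slide 1. The phosphatase gene Cdc25b and the CDK-binding subunit gene Cks2 had differences of -0.32 and -0.35 (adjusted p = 0.070 each), close to their -0.30 and -0.31 within slide 1. Cdc25c, a second activating phosphatase, differed by -0.14 over all arrays and 0.07 within slide 1.

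Of the 7 mitotic kinase genes 2 fell, with a median of -0.39 for the group and -0.19 within slide 1. Plk1, which acts from centrosome maturation to cytokinesis, read 1.03, 1.07 and 1.03 with IL-4 and 1.5, 2.01 and 1.90 with PBS. The IL-4 arrays were almost identical, and PBS replicate 1 lay about midway to the other PBS arrays. This gave a log2 difference of -0.76 ± 0.14 (SE; adjusted p = 0.040, limma), against -0.46 within slide 1.

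Bub1b encodes BUBR1, a component of the spindle checkpoint. Its signals were -0.95, -1.02 and -0.99 with IL-4 and -0.62, -0.31 and -0.23 with PBS. Again the groups were apart and PBS replicate 1 was the lowest PBS array, for a difference of -0.60 ± 0.12 (SE; adjusted p = 0.048, limma) and -0.37 within slide 1. Its relative Bub1, a checkpoint kinase at kinetochores, had -0.47 (adjusted p = 0.069) but only -0.18 within slide 1. Aurka, which works at the spindle poles, Nek2, which separates the centrosomes, and Ttk, the checkpoint kinase MPS1, had -0.39, -0.34 and -0.15 (adjusted p = 0.074, 0.080 and 0.32), and -0.22, -0.19 and -0.10 within slide 1.

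Aurkb, the kinase of the chromosomal passenger complex, stood on the other side. It read 2.82, 2.61 and 2.66 with IL-4, 2.76 on PBS replicate 1, and 2.24 and 2.10 on PBS replicates 2 and 3. PBS replicate 1 thus lay among the IL-4 arrays of its slide, and the PBS arrays of slide 2 lay below them. Aurkb differed by 0.33 ± 0.18 (SE; adjusted p = 0.21, limma) over all arrays and -0.06 within slide 1. Incenp, the scaffold of the same complex, had the same shape: 4.05, 3.92 and 3.98 with IL-4, then 4.01, 3.70 and 3.66 with PBS. Its difference of 0.19 (adjusted p = 0.28) became -0.02 within slide 1, and its second probe gave -0.08. Both genes, with Dlgap5, were the 3 called higher when PBS replicate 1 was left out. Birc5, which encodes survivin, another subunit of the complex, had -0.37 (adjusted p = 0.088) and -0.13 within slide 1, while its other probes gave 0.05 and -0.07.

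**Figure D2:**
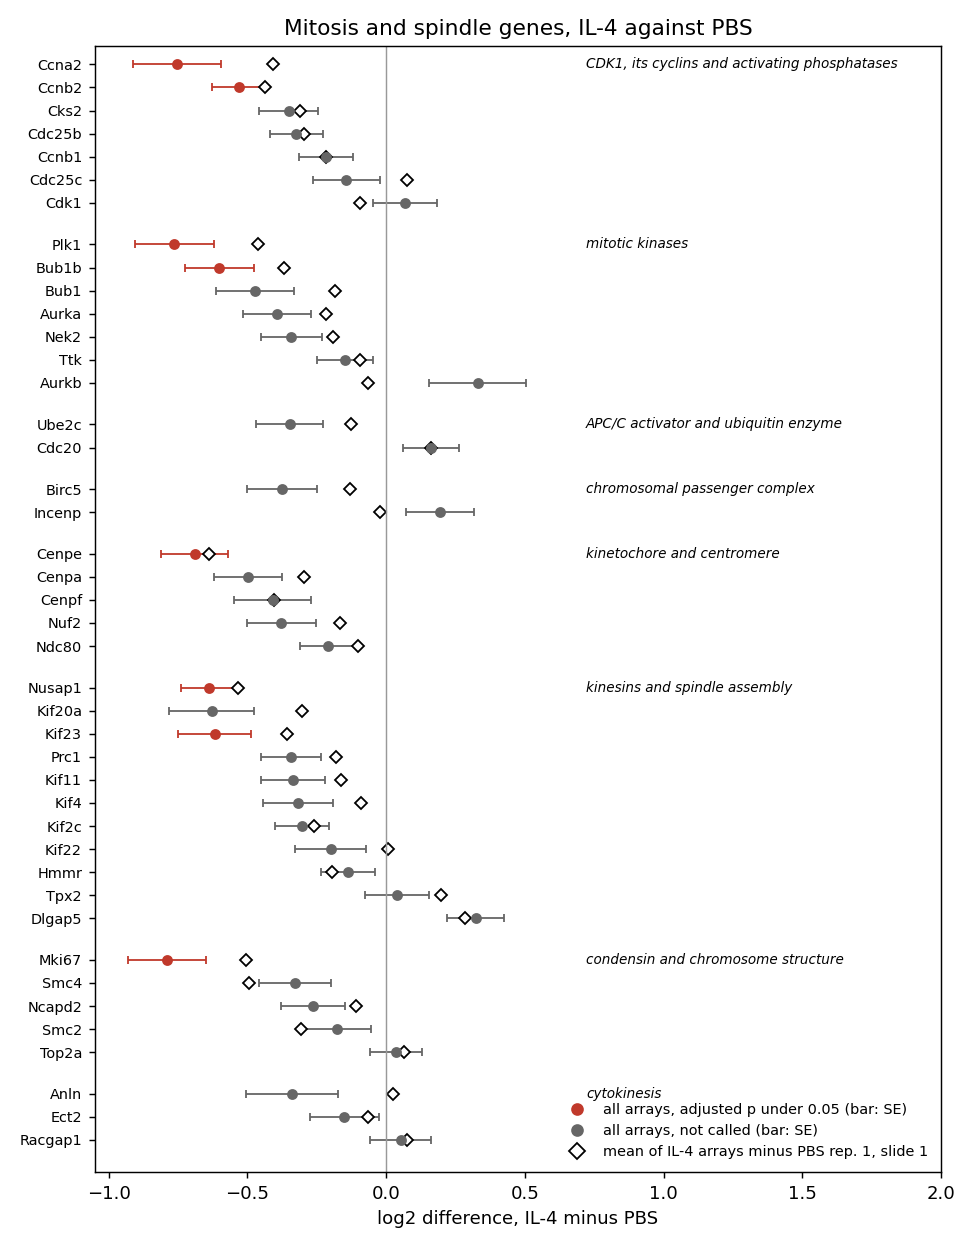
The log2 difference of each of the 42 genes, IL-4 minus PBS, by role. Filled circles are differences over all 6 arrays with SE bars, red where the adjusted p was under 0.05, and open diamonds are differences from PBS replicate 1 within slide 1. All 8 red circles lie at -0.53 or lower, and most diamonds lie nearer to 0 than their circle.

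The 2 genes that act with the APC/C differed in sign and neither passed. Cdc20, its activator and the target of the spindle checkpoint, read 3.52, 3.32 and 3.43 with IL-4 and 3.26, 3.31 and 3.21 with PBS. The IL-4 arrays all lay above the PBS arrays, by a narrow margin at IL-4 replicate 2. On the log2 scale the difference was 0.16 ± 0.10 (SE; adjusted p = 0.28, limma), the same within slide 1. Ube2c, the ubiquitin-conjugating enzyme that works with the APC/C, had -0.35 (adjusted p = 0.093) and -0.13 within slide 1.

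All 5 kinetochore and centromere genes had negative differences, beside 56.5% of all genes, and 1 fell. In each of the 5 all IL-4 arrays lay below all PBS arrays, as for 20% of all genes. The median was -0.41, and -0.30 within slide 1. There all 5 were again negative, against 48.8% of all genes, with all IL-4 arrays below PBS replicate 1, against 25.5%. Cenpe, the kinesin that carries chromosomes to the middle of the spindle, read 1.06, 1.33 and 1.30 with IL-4 and 1.87, 2.07 and 1.83 with PBS. Here PBS replicate 1 lay among the PBS arrays, and the difference was much the same on both readings, -0.69 ± 0.12 (SE; adjusted p = 0.036, limma) and -0.64 within slide 1. With slide as a block its adjusted p was 0.24.

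The other kinetochore genes did not pass. Cenpa, the histone variant that marks the centromere, read 0.37, 0.18 and 0.30 with IL-4 and 0.58, 0.84 and 0.93 with PBS. Its log2 fold change was -0.50 (adjusted p = 0.057), and -0.30 within slide 1. Cenpf, a large outer kinetochore protein gene, had -0.41 (adjusted p = 0.088) and nearly the same within slide 1, -0.40. Ndc80 and Nuf2 encode partner subunits of the complex that grips microtubules. They had -0.21 and -0.38 (adjusted p = 0.18 and 0.085), and -0.10 and -0.17 within slide 1. A second probe of Nuf2 was well above background on 3 arrays and was not tested.

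Kinesins and spindle assembly factors form the largest group, in which 2 of 11 genes fell, with a median of -0.32 and -0.18 within slide 1. Nusap1, which bundles spindle microtubules near chromosomes, had the lowest adjusted p of all members. It read -0.46, -0.35 and -0.35 with IL-4 and 0.15, 0.26 and 0.34 with PBS, groups that were far apart and each tight. Its difference was -0.64 ± 0.10 (SE; adjusted p = 0.033, limma), -0.53 within slide 1, and its adjusted p with slide as a block was 0.20, the lowest among the members there too. Kif23, the kinesin of the central spindle needed for cytokinesis, read 0.19, 0.26 and 0.20 with IL-4 and 0.57, 0.92 and 1.00 with PBS. They differed by -0.62 ± 0.13 (SE; adjusted p = 0.049, limma), and -0.36 within slide 1, since PBS replicate 1 was again the lowest PBS array.

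Kif20a, a kinesin of the late spindle and midbody, was the member nearest to the threshold that did not pass. Its signals were 0.68, 0.61 and 0.58 with IL-4 and 0.93, 1.33 and 1.5 with PBS, a wide spread among the PBS arrays. The difference was -0.63 (adjusted p = 0.055), and -0.30 within slide 1. Prc1, which cross-links the central spindle, Kif11, the motor that pushes spindle poles apart, Kif4, which shapes the central spindle, and Kif2c, which depolymerizes microtubules at centromeres, had -0.34, -0.34, -0.32 and -0.30 (adjusted p = 0.079, 0.092, 0.12 and 0.080). Within slide 1 these were -0.18, -0.16, -0.09 and -0.26 in that order. Kif22, a chromosome-arm kinesin, and Hmmr, a spindle pole protein, had -0.20 and -0.14 (adjusted p = 0.29 and 0.33), and 0.0048 and -0.20 within slide 1.

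The remaining spindle genes had positive differences. Dlgap5, which stabilizes kinetochore fibres, read 0.0082, -0.08 and 0.11 with IL-4 and -0.27, -0.26 and -0.40 with PBS. The groups did not overlap and PBS replicate 1 lay with the other PBS arrays, so the difference was 0.32 ± 0.10 (SE; adjusted p = 0.081, limma) overall and 0.28 within slide 1. Its second probe gave -0.09 over all arrays and 0.06 within slide 1. Tpx2, the activator of Aurora A on the spindle, had 0.04 (adjusted p = 0.82) and 0.20 within slide 1. Its second probe gave 0.40 over all arrays (adjusted p = 0.068 in the fit over all probes) and 0.21 within slide 1, so the probes were far apart over all arrays and close within slide 1.

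Among genes of condensin and chromosome structure, 1 of 5 fell, with a median of -0.26 and -0.31 within slide 1. Mki67 encodes Ki-67, which coats mitotic chromosomes and is the common marker of proliferating cells, and it had the largest difference of the 42. It read 0.99, 1.11 and 1.16 with IL-4 and 1.59, 2.02 and 2.02 with PBS. The groups were apart, with PBS replicate 1 the lowest of the PBS arrays. The log2 fold change was -0.79 ± 0.14 (SE; adjusted p = 0.037, limma), and -0.51 within slide 1. Its second probe was negative too and passed in a fit over all probes, at -0.49 ± 0.10 (SE; adjusted p = 0.043, limma) and -0.47 within slide 1.

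The condensin genes did not pass. Smc4 and Smc2 encode the ATPase core of condensin, the ring complex that compacts chromosomes. Smc4 read 2.04, 2.34 and 2.31 with IL-4 and 2.73, 2.53 and 2.43 with PBS, and unlike most members its PBS replicate 1 was the highest PBS array. Its difference was thus larger within slide 1, -0.50, than over all arrays, -0.33 (adjusted p = 0.12). Smc2 did likewise, at -0.31 and -0.18 (adjusted p = 0.32), whereas Ncapd2, a regulatory condensin subunit, had -0.11 within slide 1 and -0.26 overall (adjusted p = 0.15). Top2a, the topoisomerase that untangles sister chromatids, read 0.37, 0.35 and 0.42 with IL-4 and 0.32, 0.36 and 0.35 with PBS. Its groups overlapped within a narrow range, and the difference of 0.04 had a SE of 0.09 (adjusted p = 0.80, limma), with 0.06 within slide 1.

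None of the 3 cytokinesis genes passed (limma), with 0 at an unadjusted p under 0.05, beside 34.1% of all genes, and their groups overlapped. Anln, the actin-binding scaffold of the cleavage furrow, read 1.78, 1.66 and 1.56 with IL-4, 1.64 on PBS replicate 1, and 2.21 and 2.16 on PBS replicates 2 and 3. Its difference of -0.34 (adjusted p = 0.18) was 0.02 within slide 1. Ect2, which activates the GTPase RhoA at the furrow, and Racgap1, which forms the centralspindlin complex with KIF23, had -0.15 and 0.05 (adjusted p = 0.41 and 0.76). Within slide 1 they had -0.07 and 0.08, and a second probe of Racgap1 gave -0.17 over all arrays.

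**Figure D3:**
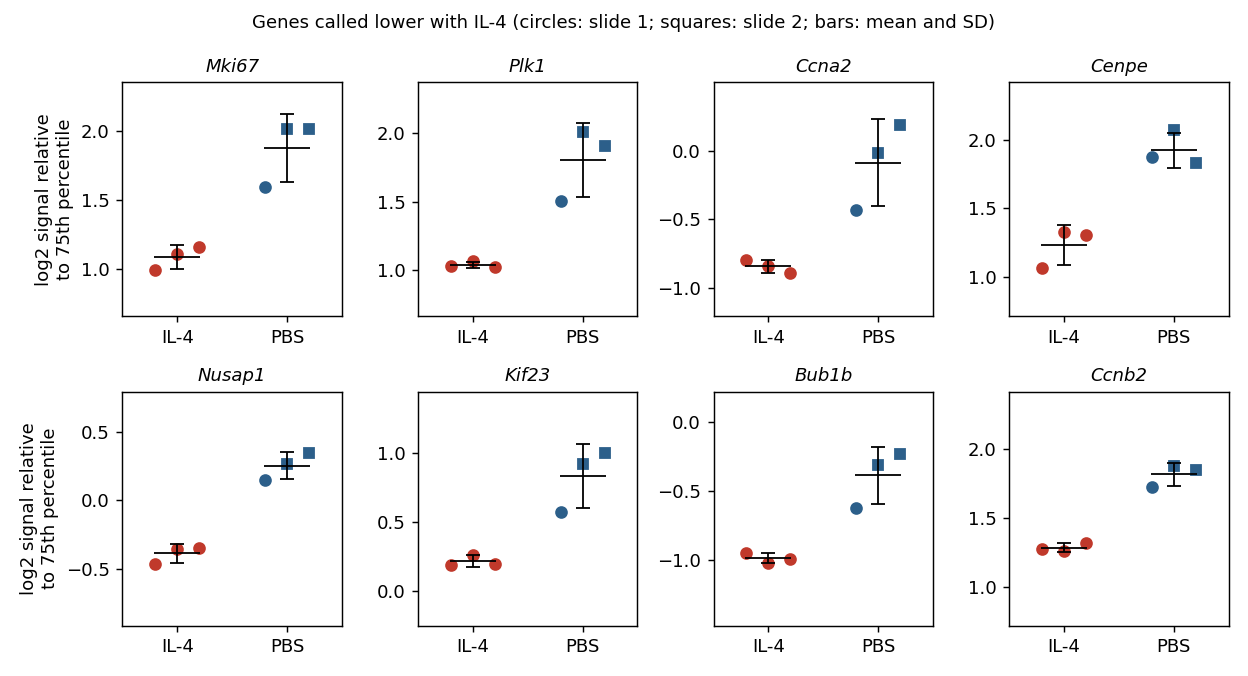
Log2 signal of the 8 mitosis genes that fell, relative to the 75th percentile of each array, with circles for arrays of slide 1, squares for slide 2 and bars for the group mean and SD (n = 3). In every panel the 3 IL-4 arrays lie below all PBS arrays, and in all but the Cenpe panel the PBS circle is the lowest PBS point.

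Promoters of mitotic genes often carry CCAAT boxes, bound by NF-Y, and a cell cycle homology region (CHR), bound by the MuvB complexes that repress these genes in resting cells and activate them late in the cell cycle. RefSeq promoters of mouse build GRCm38.p6, from 250 bases before to 50 after the annotated start, were matched for 34 of the 42 genes. CCAAT, searched on both strands, was in 28 of these 34 (82.4%) and in 37.9% of the promoters of 27025 genes. TTTGAA or TTTAAA, the CHR letters searched on both strands, were in 28 (82.4%) against 27.8%, and TTTGAA alone in 25 (73.5%) against 18.1%. Both kinds together were in 24 (70.6%) against 10.9%, and matches may share bases where they adjoin. In the 100 bases before the start, CCAAT was in 25 (73.5% against 19.6%) and the CHR letters in 10 (29.4% against 9.91%). The letters did not separate the genes that fell from the others: of the 7 of these with a promoter 6 held CCAAT and 6 the CHR letters, and of the 27 other members 22 held each. A match is a description of letters and not a bound site.

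The 150 bases before the start are shown, 5′ to 3′ on the gene's strand, for the 4 members with the lowest adjusted p, to let their promoters be compared. Capitals mark the CCAAT box, written ATTGG where it lies on the other strand, and the CHR letters. Nusap1 (chr2:119618148-119618297, plus strand) and Cenpe (chr3:135212413-135212562, plus strand) come first, then Mki67 (chr7:135716380-135716529, minus strand) and Ccnb2 (chr9:70421555-70421704, minus strand).
Nusap1: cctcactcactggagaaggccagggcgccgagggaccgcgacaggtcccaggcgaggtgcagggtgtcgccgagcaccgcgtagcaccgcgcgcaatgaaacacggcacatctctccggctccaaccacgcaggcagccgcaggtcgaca
Cenpe: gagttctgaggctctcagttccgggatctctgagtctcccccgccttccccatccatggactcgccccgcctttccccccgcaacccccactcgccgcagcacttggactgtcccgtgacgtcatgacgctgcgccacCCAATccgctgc
Mki67: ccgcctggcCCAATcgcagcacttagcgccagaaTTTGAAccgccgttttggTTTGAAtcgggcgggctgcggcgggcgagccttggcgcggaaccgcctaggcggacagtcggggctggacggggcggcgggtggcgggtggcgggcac
Ccnb2: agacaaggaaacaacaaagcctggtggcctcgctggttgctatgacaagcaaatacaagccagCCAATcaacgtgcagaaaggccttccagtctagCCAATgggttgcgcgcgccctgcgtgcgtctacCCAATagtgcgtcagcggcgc
These genes, which fell by similar amounts, differ in their letters within the 150 bases shown. Nusap1 holds none of the motifs in this stretch and Cenpe a single CCAAT at 12 bases before the start. Mki67 has CCAAT at 141 and TTTGAA at 116 and 98 bases, and Ccnb2 has CCAAT at 87, 54 and 21 bases. The contrast is narrower in the whole window, from 250 bases before to 50 after the start. There Cenpe held 1 match of the CHR letters and Ccnb2 held 2, all outside the bases shown. Mki67 held 3 matches of CCAAT there, and Nusap1 held none of either kind.

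Plk1 and Cdk1 were picked after their values were seen, as genes with both kinds of motif and unlike differences. Plk1 (chr7:122159285-122159434, plus strand) fell, with a log2 fold change of -0.76, and Cdk1 (chr10:69352913-69353062, minus strand) had 0.07 and did not pass.
Plk1: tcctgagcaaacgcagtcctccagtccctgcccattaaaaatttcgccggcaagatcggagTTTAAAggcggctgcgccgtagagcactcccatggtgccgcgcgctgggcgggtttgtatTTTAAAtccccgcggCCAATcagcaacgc
Cdk1: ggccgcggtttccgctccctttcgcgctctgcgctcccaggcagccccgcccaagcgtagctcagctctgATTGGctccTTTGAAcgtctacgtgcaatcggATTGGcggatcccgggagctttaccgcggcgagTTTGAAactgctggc
Plk1 has TTTAAA at 89 and 29 bases before the start and CCAAT at 14. Cdk1 has CCAAT on the other strand at 80 and 48 bases and TTTGAA at 71 and 15, so both promoters hold 2 CHR matches in this stretch.

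Other genes of mitosis, in 9 lists by role, gave smaller shifts. Of 196 listed genes 194 were tested, 17 fell and 3 rose, with a median of -0.18 and of -0.05 within slide 1. Among all genes 2.54% fell and 0.807% rose, shares that stand beside the counts of each list below. The list of condensin and cohesin had the median most like that of the members, -0.33 and -0.17 within slide 1. Of its 21 genes 20 had negative differences, beside 56.5% of all genes. Esco1, which acetylates cohesin, and Sgo2a, which protects cohesin at centromeres, fell there, at -0.71 and -0.54 (-0.60 and -0.44 within slide 1).

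Among 35 tested genes of spindle and kinesins 5 fell and 0 rose, with a median of -0.17 and -0.10 within slide 1. The largest falls were those of Fam83d, which recruits a kinase to the spindle, Kif20b, a kinesin of cytokinesis, and Aspm, a spindle pole protein. They had -0.99, -0.84 and -0.63, and kept -0.92, -0.71 and -0.54 within slide 1. Fam83d was thus further from PBS than any of the 42 members on both readings. Kif14 and Clasp1 had no tested probe.

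In the 23 transcription factor genes that govern mitotic transcription 4 fell. Among them Tfdp2, a dimerization partner of E2F, Rbl2, the pocket protein p130, and Lin9, a MuvB core subunit, had -0.75, -0.56 and -0.54, and -0.72, -0.58 and -0.41 within slide 1. Foxm1, the forkhead factor that activates mitotic genes, read -1.08, -1.22 and -1.08 with IL-4 and -0.96, -0.50 and -0.53 with PBS. PBS replicate 1 lay near the IL-4 arrays, and the difference of -0.46 (adjusted p = 0.075) was -0.17 within slide 1. Mybl2, which encodes B-MYB, had 0.24 (adjusted p = 0.33) and 0.17 within slide 1. The median of the list was -0.14, and -0.05 within slide 1.

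Of 20 genes of mitotic entry control 2 fell, Mnat1, a subunit of the CDK-activating kinase, and the mitotic kinase gene Pbk, at -0.74 and -0.58 (-0.56 and -0.43 within slide 1). Wee1, the kinase that restrains CDK1, had -0.61 (adjusted p = 0.073) and -0.18 within slide 1. Of 18 genes for the APC/C and its inhibitors 2 rose and 0 fell. They were Anapc2, its cullin subunit, at 0.78, and Ube2s, which extends ubiquitin chains, at 0.67, with 0.44 and 0.55 within slide 1. Fzr1, the second APC/C activator, had -0.26 (adjusted p = 0.15) and -0.19 within slide 1.

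In the spindle checkpoint and outer kinetochore list 1 of 20 fell, Ska2, which binds microtubules, at -0.62 and -0.60 within slide 1. Mad2l1, the checkpoint protein that sequesters CDC20, had -0.22 (adjusted p = 0.22) and -0.06 within slide 1. None of 21 inner kinetochore genes was called (limma). Of these, 7 had an unadjusted p under 0.05, a share near the 34.1% of all genes, and their median was -0.15 and -0.02 within slide 1. Among 22 centrosome genes Nek9 and Nek7, kinases that act together in spindle assembly, fell, at -0.73 and -0.71 (-0.43 and -0.66 within slide 1). Cep135, a centriole protein gene, rose by 2.17, but PBS replicate 1 stood 1.79 above the mean of PBS replicates 2 and 3, and the difference within slide 1 was 0.97. Of 14 genes of cytokinesis machinery 1 fell, Kif13a, an endosome motor, at -0.57 and -0.40 within slide 1.

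Genes of the earlier phases of the cell cycle were mostly not lower with IL-4 within slide 1. In the list of S phase and replication 2 of 50 genes fell, Tk1, thymidine kinase, and Prim1, a primase subunit, at -0.78 and -0.62 (-0.68 and -0.50 within slide 1). The median of that list was -0.0038 over all arrays but 0.13 within slide 1. There 13 of 50 genes were negative, against 34 of the 42 members and 48.8% of all genes. All IL-4 arrays lay above PBS replicate 1 for 30 of the 50 and below it for 8, whereas for the members these counts were 5 and 30. Over all genes the shares were 30.5% above and 25.5% below. The difference between the lists was not tested, and within slide 1 it rests on the single array of PBS replicate 1.

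Among 16 tested G1 genes 1 fell, Cdkn1b, the CDK inhibitor p27, at -0.62 and -0.49 within slide 1. Cdkn1a, the CDK inhibitor p21, had 0.34 (adjusted p = 0.097) and 0.53 within slide 1. The cyclin genes Ccnd1 and Ccne1 had 0.01 and 0.07 (adjusted p = 0.94 and 0.70), and 0.17 and 0.25 within slide 1. The median was -0.02, and 0.08 within slide 1, and Skp2 had no tested probe. No listed gene outside the 42 members was called with slide as a block.

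**Figure D4:**
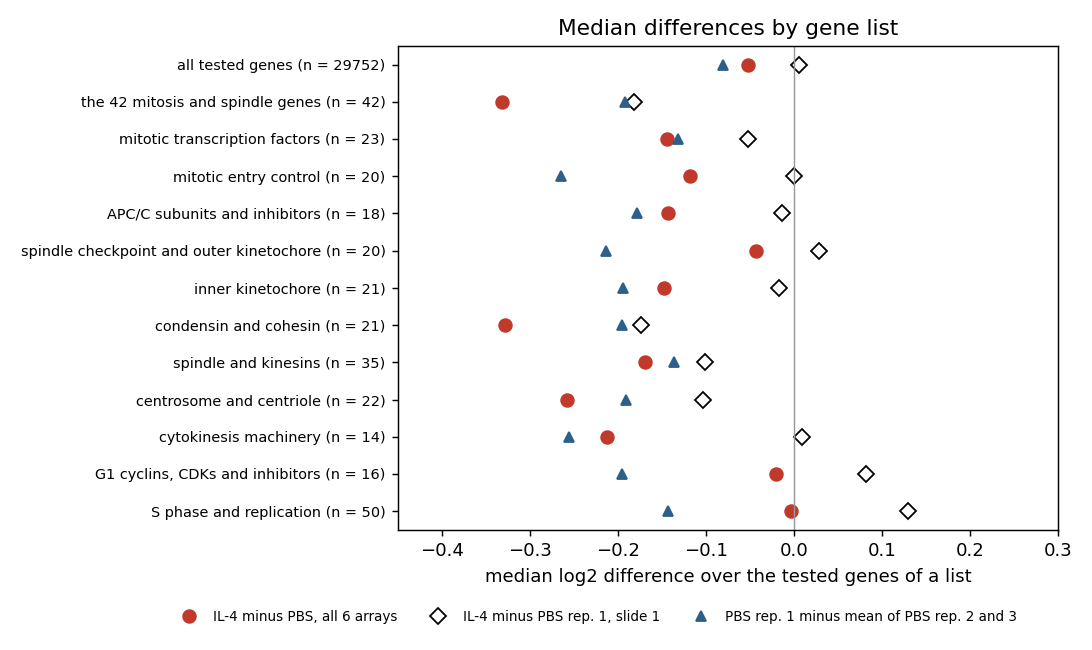
Median log2 difference over the tested genes of each list (n in brackets). Circles are IL-4 minus PBS over all arrays, diamonds IL-4 minus PBS replicate 1 within slide 1, and triangles PBS replicate 1 minus the mean of PBS replicates 2 and 3. The mitosis and spindle genes lie at -0.33, -0.18 and -0.19 on these 3 measures, and S phase genes at -0.0038, 0.13 and -0.14.

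The labelled cell type was checked against markers. Of 12 microglia and macrophage markers 6 were above the 75th percentile on all arrays, among them the brightest 3, Trem2, Adgre1 and Csf1r. The dimmest 3, P2ry12, Spi1 and Cx3cr1, had mean log2 signals of -1.78, -2.43 and -2.89. Aif1, Lyz2 and Tyrobp fell, at -0.72, -0.81 and -0.95, with -0.49, -0.55 and -0.54 within slide 1. With slide as a block 0 of the 12 were called (limma), 4 having an unadjusted p under 0.05, beside 10.2% of all genes. The median of the 12 was -0.44 over all arrays and -0.23 within slide 1. The summed signal of the 12, in units of the 75th percentile, was 50.4 to 55.8 with IL-4 and 56.9 to 72.2 with PBS. None of the 32 tested markers of other cell types was called (limma). All 6 tested T and B cell markers had positive differences, with a median of 0.61, or 0.15 within slide 1. An unadjusted p under 0.05 was found for 4 of these 6 (limma). Over all 32 markers this count was 10, a share near the 34.1% of all genes. Their summed signals, over the markers measured on all arrays, were 2.13 to 2.5 with IL-4 and 1.68 to 1.95 with PBS for 6 neuronal genes, 3.42 to 3.89 and 1.98 to 3.37 for 6 of oligodendrocytes, and 1.79 to 1.92 and 0.869 to 1.48 for 5 of T and B cells. For 3 astrocyte genes they were 0.5 to 0.528 and 0.467 to 0.495, for 5 of fibroblasts 0.297 to 0.378 and 0.334 to 0.395, and for 5 of endothelium 9.96 to 13.3 and 10.1 to 14.8. Snap25, Mog and Pecam1 were above the 75th percentile on all arrays, and Aqp4 and Cd4, each with a value on 5 arrays, had mean log2 signals of 3.63 and 2.53. The part of these markers in the results on the mitosis genes was not tested.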

How the data were processed

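RNA of 3 IL-4 and 3 PBS samples of BV2 cells was measured on 6 arrays, grouped by the labels. A description label mentions human blood and the design text an untreated control, and neither was used. Spot intensity values on a linear scale were deposited as written by the scanner software (Agilent Feature Extraction, version 11.0.1.1 per the file headers), with background subtracted and trends within an array removed. The authors' value table is on a log2 scale from its values, with a median of 6.92 in every column, an unstated normalization, and, array by array, correlations of at least 0.999 with log2 processed signal. It served as an alternative only.

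Outlier spots were left out (87 to 394 per array), copies of a probe were averaged, and log2 processed signal was set relative to the 75th percentile of its array. A probe was tested if all arrays of 1 or both groups had it well above background, and each gene was read from its brightest tested probe. Symbols came from RefSeq accessions without version (GRCm38.p6), which named 27234 of 39429 probes (69.1%). The groups were compared in limma 3.58.1 (lmFit, eBayes; R 4.3.3), with Benjamini-Hochberg adjustment over 29752 genes. SE is that of the fit. Every sentence with an adjusted p refers to this fit unless another is named. Slides were inferred from shared scan dates, and positions were read from the barcodes, both in the file headers. The labels name no slide. The fit was tested on simulated gene values that held no slide effect, which cannot show how slide bears on it. Scaling, spot filtering and the choice of probe were not simulated.

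Members and lists were chosen with earlier results of these data known. Named were all 42 members, up to 3 called genes per list with the largest change, 10 further genes whatever their values, and up to 3 markers per cell type. For microglia the called markers and the dimmest 3 were named too. Alternatives covered scaling, normexp background correction (offset 50, on median spot signal, as the mean signal planned was not used here), the dim-probe filter, the choice of probe, slide, replicate number and each array left out.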

Additional observations from a re-analysis of the deposited data

How the results depend on the processing

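The 8 members that fell had negative log2 fold changes under all 21 alternatives, but their calls did not hold under all of them. Of all genes, 997 in the reported fit, 1733 were called with scaling to the median, 523 with the 75th percentile over detected probes, 2637 with quantile normalization, 4058 with normexp and the 75th percentile (2032 higher, 2026 lower), 3096 with normexp and quantile, 2299 with the authors' table, 15 with no filter on dim probes, 3808 with probes well above background on all 6 arrays (1830 higher, 1978 lower), 605 with the mean of a gene's probes, 9 with slide as a fixed block, 75 with slide as a random block, 1 on slide 1 only and 0 to 12657 with an array left out. Of the members, 5, 13 and 15 were called with the 75th percentile over detected probes, normexp and the 75th percentile, and normexp and quantile, 5 with the mean of probes, 0 with no filter, either slide block or slide 1 only, and 0 to 29 with an array left out, 0 to 3 of them higher. Of the other listed genes, 23 in the reported fit, the counts were 12, 57 and 55 for the first 3 of these, 43 with quantile normalization, 41 with the authors' table, 49 with probes well above background on all arrays, 0 with no filter, 0 with the fixed and 3 with the random slide block, 0 on slide 1 only and 0 to 114 with an array left out. The cause of these shifts was not tested. The fits on slide 1 only and with an array left out use fewer samples, and the count differed by which array was left out. How far sample number bears on these counts was not tested. Without PBS replicate 1, 12657 genes were called, and without any other single array 0 to 3.

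The median of the members was -0.18 with slide as a fixed block or slide 1 only and -0.24 with it as a random block. Their median within slide 1 was -0.12 with normexp and the 75th percentile, -0.16 with normexp and quantile, and -0.19 to -0.17 with an IL-4 array left out. Signs turned for 9 members, none called in the reported fit, where Aurkb had 0.33, Anln -0.34 and the other 7 between -0.20 and 0.19. Cdk1 had -0.0025 with normexp and quantile, -0.095 with slide as a fixed block or slide 1 only, -0.024 with the random block and -0.0073 to 0.15 with an array left out. With slide as a fixed block or slide 1 only, Cdc25c had 0.074, Aurkb -0.064, Incenp -0.021, Kif22 0.0048 and Anln 0.024. Tpx2 had -0.0076 with normexp and the 75th percentile and -0.038 to 0.12 with an array left out. Top2a had -0.031 with normexp and the 75th percentile and -0.016 with normexp and quantile. Racgap1 had -0.060 with the mean of its probes and -0.0025 to 0.12 with an array left out.

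The labels name no pairing, and replicate numbers were not used as pairs in the reported fit. Deviations of same-numbered arrays correlated at 0.08, -0.02 and 0.30 across genes, and those of differently numbered arrays at -0.19 to 0.06. These values do not settle whether the samples were paired. With the replicate block 3770 genes, 9 members and 40 other listed genes were called. Leaving out both arrays in position 1 of a slide, chosen after seeing the data, called 0 genes, 0 members and 0 other listed genes, with a median of -0.17 within slide 1 and -0.0023 for Tpx2. In the 100 bases before the start 10 promoters held the CHR letters, against 28 in the whole window.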
